A study of Mus musculus with 6 samples.

Results

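Prostaglandins are short-lived lipids that cells make on demand and release. Phospholipases A2 free arachidonic acid from membranes, the cyclooxygenases Ptgs1 and Ptgs2 (COX-1 and COX-2) turn it into prostaglandin H2, and terminal synthases shape that intermediate into prostaglandin E2 (Ptges), prostacyclin (Ptgis) or prostaglandin D2 (Ptgds). Transporters carry the products across membranes, Hpgd starts their inactivation, and G protein-coupled receptors such as EP2 (Ptger2) and EP4 (Ptger4) read them, both by raising cyclic AMP. In stromal cells COX-2 is known as the inducible enzyme and COX-1 as the constant one, and prostaglandin E2 from stroma is known for its action on immune cells. The 8 genes described here, Ptgs1, Ptgs2, Ptges, Ptgis, Ptgds, Hpgd, Ptger2 and Ptger4, were chosen by name as these enzymes and receptors, and all 8 were found among the 34745 genes of the expression table.

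The cells were mesenchymal stromal cells grown from the lungs of MMTV-PyMT mice (LMSCs), a strain in which the MMTV promoter drives the polyoma middle T oncogene in mammary epithelium, so that breast tumours arise and spread to the lung. A-LMSCs came from mice at the adenoma stage (6 to 7 weeks of age by the sample labels), PM-LMSCs from mice before lung metastasis (9 to 10 weeks) and M-LMSCs from mice with lung metastases (13 to 14 weeks), with 2 RNA sequencing libraries per stage, all from cells at passage 3 in serum-containing medium. Every group carried the transgene, age rose together with stage so that the effects of age and stage cannot be told apart, and the labels do not tie a library to a mouse or culture, although the study counts its RNA sequencing replicates as mice. P-values measure the spread between these libraries. By the study's methods, digested lung was plated, adherent cells were depleted of CD45+ blood cells with magnetic beads, and the rest was kept in several dishes per mouse. Those methods give slightly higher ages for the first 2 stages than the labels do.

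The values were FPKM, fragments per kilobase of transcript scaled to each library's mapped fragments, which allow levels of different genes to be set side by side. From the smallest steps between low values the libraries were estimated to rest on 14940000 to 20880000 fragments each. Levels of 2 libraries of the same stage correlated across genes with r = 0.977 to 0.992, and those of different stages with r = 0.966 to 0.987. All 11 mesenchymal stromal markers on the list used were above 1 FPKM on average (Col1a1 761 to 1472 FPKM, Pdgfrb 61.1 to 89.1 FPKM), and Acta2, a smooth muscle actin also made by cultured fibroblasts, lay between 4986 and 6311 FPKM. The defining markers Ptprc (CD45, 0.0254 to 0.0987 FPKM) and Pecam1 (CD31, at most 0.0337 FPKM) were close to 0. Among the 14 listed haematopoietic markers, 8 averaged at least 1 FPKM, and 3, Ptprc included, stayed under 1 FPKM in all 6 libraries. The 8 included the myeloid lysozyme gene Lyz2 at 60.6 to 362 FPKM, Cd53 at 3.90 to 19.4 FPKM, Tyrobp at 3.12 to 13.1 FPKM and Cd68 at 5.48 to 12.2 FPKM. Epcam was listed at 0 in the A- and PM-LMSCs and at 0.326 and 0.473 FPKM in the M-LMSCs.

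The promoters of the abundant members are shown because the levels of these genes carry most of what follows. RefSeq promoter windows, from 250 bases before to 50 bases after the start site (build GRCm38.p6), were found for 7 of the 8 members, and Ptgis had no entry. Windows were searched on both strands for TATAAA, found in many core promoters, TGACG, the core of the element bound by CREB, CACGTG, known as an E-box, TTGCGCAA, a palindrome known to bind C/EBP factors, and GGGCGG, bound by Sp1. Matches stand in capitals. The windows are chr2:36230176-36230475 on the plus strand for Ptgs1, chr1:150099781-150100080 on the plus strand for Ptgs2, and chr2:30903248-30903547 on the minus strand for Ptges, each written in the direction of transcription.
Ptgs1: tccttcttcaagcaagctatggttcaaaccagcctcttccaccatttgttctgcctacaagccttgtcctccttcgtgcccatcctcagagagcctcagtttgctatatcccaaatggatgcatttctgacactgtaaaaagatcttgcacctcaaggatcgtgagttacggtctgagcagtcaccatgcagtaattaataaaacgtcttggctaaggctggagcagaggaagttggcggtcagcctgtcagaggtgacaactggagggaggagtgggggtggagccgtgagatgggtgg
Ptgs2: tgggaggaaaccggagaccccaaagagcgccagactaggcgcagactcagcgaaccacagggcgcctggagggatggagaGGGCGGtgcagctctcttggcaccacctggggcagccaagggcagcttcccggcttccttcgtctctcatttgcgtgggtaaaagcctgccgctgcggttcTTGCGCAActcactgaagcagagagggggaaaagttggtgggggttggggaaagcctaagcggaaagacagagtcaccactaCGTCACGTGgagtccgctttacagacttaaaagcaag
Ptges: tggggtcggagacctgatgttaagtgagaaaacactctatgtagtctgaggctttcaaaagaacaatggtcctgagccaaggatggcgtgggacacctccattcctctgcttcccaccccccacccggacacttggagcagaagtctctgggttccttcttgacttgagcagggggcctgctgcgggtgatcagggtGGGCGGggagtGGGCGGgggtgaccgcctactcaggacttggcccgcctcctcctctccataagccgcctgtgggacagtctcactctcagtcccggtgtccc
The Ptgs2 window held a GGGCGG at position -170, a TTGCGCAA at -69, a TGACG on the other strand at 14 and an overlapping CACGTG at 17. Positions are those of the first printed letter of a match, counted from 1 at the start site and negative before it. TTGCGCAA occurred in 0.183% of all 32851 windows, CACGTG in 7.15%, TGACG in 20.8% and GGGCGG in 35.7%. The Ptges window held GGGCGG at -53 and -42, and the Ptgs1 window held none of the 5 motifs, TATAAA included, which occurred in 13.6% of windows. Among the other members, the Ptger4 window held 4 GGGCGG matches, the Hpgd window a TATAAA at 5 and a GGGCGG at -50, and the Ptgds and Ptger2 windows none of the 5. Positions count from the RefSeq start site, which for Ptges, Ptgds, Hpgd and Ptger2 differs from the start of the gene span printed below. The Hpgd TATAAA lies before that gene span. GC content was 50.7% for Ptgs1, 59.3% for Ptgs2 and 67.0% for Ptger4, beside a median of 52.7% over all windows. These matches describe letters only and no binding was measured.

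LMSCs held transcripts of both cyclooxygenases and of the prostacyclin synthase at high level, and of the prostaglandin E2 synthase Ptges at a more moderate level. They held very few for the breakdown enzyme Hpgd or for the receptors EP2 and EP4. In mean level over the 6 libraries the order was Ptgis, Ptgs2, Ptgs1, Ptges, Ptger4, Ptger2, Hpgd and Ptgds. Ptgis was listed above 94.4% to 97.6% of the 10279 tested genes in each library, Ptgs2 above 86.1% to 97.1%, Ptgs1 above 89.2% to 91.6% and Ptges above 59.5% to 72.4%. Ptgis was above Ptgs2 in 4 of 6 libraries (1.45-fold in means) and Ptgs2 above Ptgs1 in 5 of 6 (1.65-fold), so the order of these neighbours changed between libraries, as did that of Ptger2 and Hpgd (5 of 6). Ptgs1 was above Ptges (3.53-fold), Ptges above Ptger4 (13.4-fold), Ptger4 above Ptger2 (2.14-fold) and Hpgd above Ptgds (3.53-fold), each in 6 of 6 libraries. The order was set by these same libraries and is a description.

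**Figure D1:**
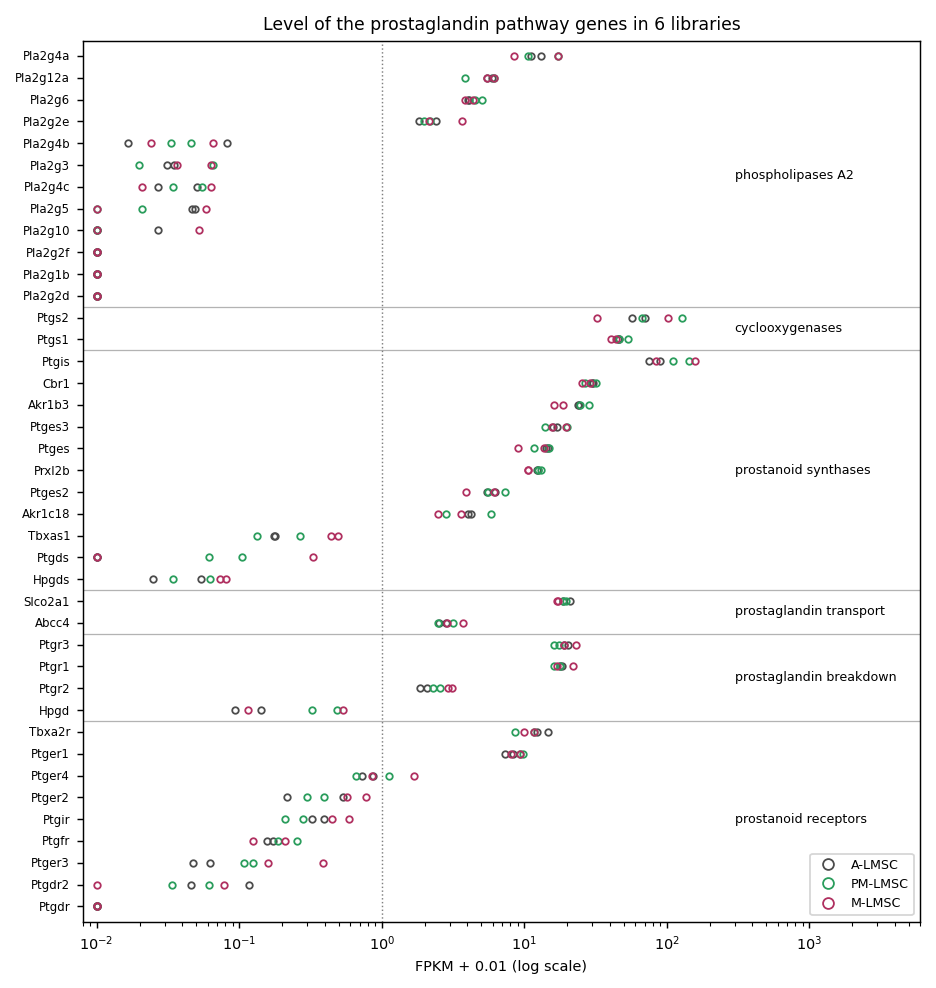
Levels of the 40 listed prostaglandin pathway genes as FPKM + 0.01 on a log axis, 1 row per gene grouped by role, 1 open circle per library coloured by stage, with a dotted line at 1 FPKM. The cyclooxygenases, Ptgis, Akr1b3, Cbr1 and the breakdown genes Ptgr1 and Ptgr3 lie above 10 FPKM in every library, while Hpgd, Ptgds and most receptors lie below 1 FPKM.

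Ptgs1 (ENSMUSG00000047250, chr2:36230426-36252272, plus strand, GRCm38), the enzyme of constant prostaglandin supply, was the steadiest of the abundant members. Its levels were 45.8 and 46.6 FPKM in the A-LMSCs, 46.4 and 53.8 FPKM in the PM-LMSCs, and 40.7 and 43.9 FPKM in the M-LMSCs. Both M-LMSC libraries lay below all the others, and A- and PM-LMSCs overlapped. In limma fits of log2(FPKM + 1) the PM-LMSC minus A-LMSC difference was 0.11 (95% interval -0.17 to 0.39, adjusted p = 0.896), the M-LMSC minus A-LMSC difference -0.13 (-0.40 to 0.15, adjusted p = 0.625) and the M-LMSC minus PM-LMSC difference -0.24 (-0.51 to 0.04, adjusted p = 0.627).

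Ptgs2 (ENSMUSG00000032487, chr1:150100031-150108227, plus strand), the inducible cyclooxygenase, varied most of the abundant members, 3.95-fold between its highest and lowest library. It stood at 70.5 and 56.7 FPKM in the A-LMSCs, 128 and 67.1 FPKM in the PM-LMSCs, and 103 and 32.4 FPKM in the M-LMSCs. The highest level was in a PM-LMSC library and the lowest in an M-LMSC library, and each stage overlapped the other 2. Stage means were 63.6 ± 9.70, 97.5 ± 42.9 and 67.7 ± 49.9 FPKM (SD, n = 2), so the libraries of 1 stage differed by as much as the stages did. The log2 differences were 0.54 (SE 0.53, 95% interval -0.73 to 1.82, adjusted p = 0.889) for PM-LMSC minus A-LMSC, -0.12 (-1.40 to 1.15, adjusted p = 0.923) for M-LMSC minus A-LMSC, and -0.67 (-1.95 to 0.61, adjusted p = 0.742) for M-LMSC minus PM-LMSC. Intervals of this width leave room for changes over 2-fold in either direction between A- and M-LMSCs.

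Ptges (ENSMUSG00000050737, chr2:30889471-30929863, minus strand), the inducible prostaglandin E2 synthase that works with COX-2, had 14.3 and 14.7 FPKM in the A-LMSCs, 11.7 and 14.9 FPKM in the PM-LMSCs, and 13.7 and 9.12 FPKM in the M-LMSCs. Both M-LMSC libraries lay below both A-LMSC libraries, and the PM-LMSC libraries overlapped each of the other stages. No difference passed the test, with -0.12 (95% interval -0.61 to 0.36, adjusted p = 0.927) for PM-LMSC minus A-LMSC, -0.35 (-0.83 to 0.14, adjusted p = 0.458) for M-LMSC minus A-LMSC, and -0.22 (adjusted p = 0.771) for M-LMSC minus PM-LMSC.

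Ptgis (ENSMUSG00000017969, chr2:167191805-167240604, minus strand), the prostacyclin synthase, had 75.3 and 89.6 FPKM in the A-LMSCs, 110.9 and 142.5 FPKM in the PM-LMSCs, and 84.1 and 159 FPKM in the M-LMSCs. Both PM-LMSC libraries lay above both A-LMSC libraries, whereas the M-LMSC libraries reached from within the A-LMSC range to above the PM-LMSC range. The PM-LMSC minus A-LMSC difference was 0.61 (SE 0.30, 95% interval -0.10 to 1.31, adjusted p = 0.811), the M-LMSC minus A-LMSC difference 0.49 (-0.22 to 1.20, adjusted p = 0.468) and the M-LMSC minus PM-LMSC difference -0.12 (adjusted p = 0.925). With the replicate number as a block the adjusted p for the first 2 were 0.182 and 0.139.

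Transcripts of the remaining members were scarce. Ptgds (ENSMUSG00000015090, chr2:25466709-25470046, minus strand), the lipocalin-type prostaglandin D2 synthase, was listed at 0 in both A-LMSC libraries and in 1 M-LMSC library, at 0.0511 and 0.0950 FPKM in the PM-LMSCs, and at 0.318 FPKM in the other M-LMSC library. The highest of these values corresponds to an estimated 8.75 fragments. Hpgd (ENSMUSG00000031613, chr8:56294585-56321043, plus strand), the dehydrogenase that begins prostaglandin inactivation, had 0.0837 and 0.133 FPKM in the A-LMSCs, 0.315 and 0.476 FPKM in the PM-LMSCs, and 0.105 and 0.526 FPKM in the M-LMSCs. Both PM-LMSC libraries lay above both A-LMSC libraries, but these levels rest on an estimated 2.94 to 14.7 fragments per library, and the difference of 0.33 on the log2(FPKM + 1) scale had an adjusted p of 0.882 in the fit without a filter on low levels. At such levels the pseudocount sets much of the size, and with a pseudocount of 0.1 FPKM the same difference was 1.24.

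The EP2 receptor gene Ptger2 (ENSMUSG00000037759, chr14:44988195-45003820, plus strand) had 0.208 and 0.527 FPKM in the A-LMSCs, 0.386 and 0.290 FPKM in the PM-LMSCs, and 0.558 and 0.769 FPKM in the M-LMSCs. Both M-LMSC libraries lay above all the others, and the M-LMSC minus A-LMSC difference of 0.29 had an adjusted p of 0.509 in the unfiltered fit. The EP4 receptor gene Ptger4 (ENSMUSG00000039942, chr15:5206661-5244187, minus strand) had 0.853 and 0.715 FPKM in the A-LMSCs, 1.12 and 0.647 FPKM in the PM-LMSCs, and 1.69 and 0.842 FPKM in the M-LMSCs. The highest level was in an M-LMSC library and the stages overlapped, with an M-LMSC minus A-LMSC difference of 0.32 (adjusted p = 0.636, unfiltered fit). Its mean of 0.978 FPKM fell just under the minimum of 1 FPKM for the main test, and the 2 receptors rested on an estimated 22.6 to 186 fragments per library.

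**Figure D2:**
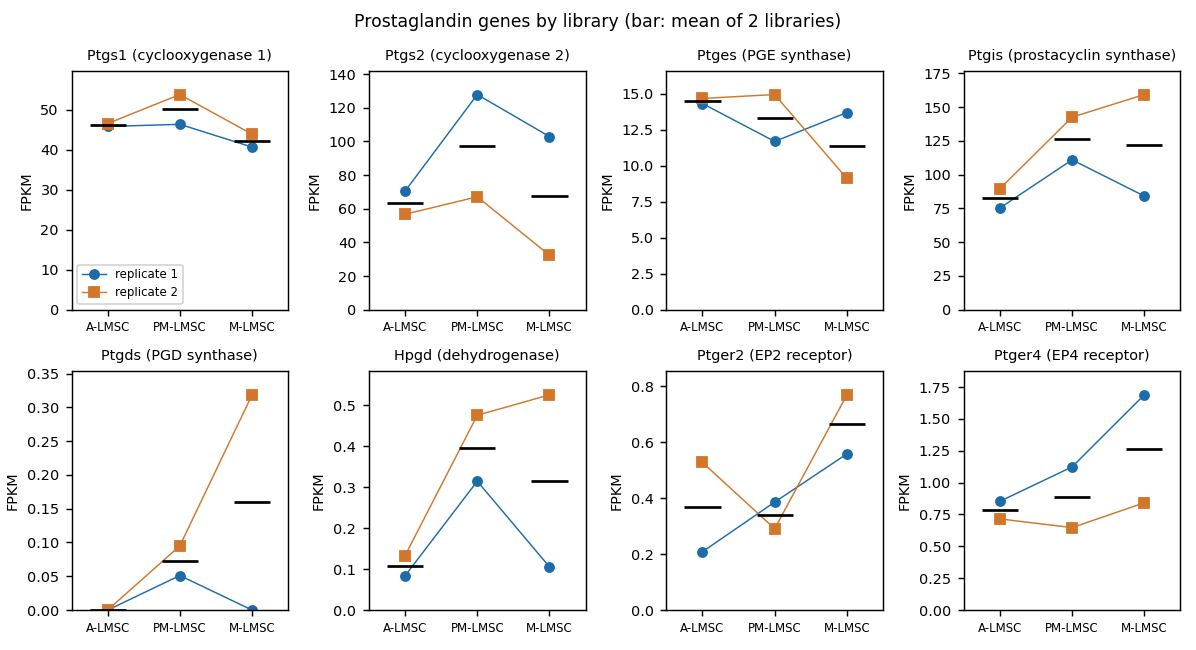
FPKM of each of the 8 members in the 6 libraries, 1 panel per gene on its own linear axis from 0, with replicates 1 and 2 as circles and squares joined across stages by replicate number and the stage mean as a horizontal bar. Ptgs2 is higher in replicate 1 and Ptgis in replicate 2 at every stage, and Ptgs1 stays between 40.7 and 53.8 FPKM.

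Exons overlap a gene on the other strand over 148 bases for Ptgs1, 156 for Ptgis, up to 246 for Ptger2 and up to 1015 for Ptger4, and whether fragments were counted by strand is not given in the sources used here, so the values of Ptger2 and Ptger4 in particular may hold reads of those neighbours. Ptgs2, Ptges, Ptgds and Hpgd overlap no other exon.

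Set against the whole table, 0 of the 4 members with a mean of at least 1 FPKM passed limma's test at an adjusted p under 0.05 in any of the 3 comparisons. The share of all 10279 tested genes that did so was 0.0389% for PM-LMSC minus A-LMSC (4 genes), 0.0681% for M-LMSC minus A-LMSC (7 genes) and 0.0292% for M-LMSC minus PM-LMSC (3 genes). With the replicate number as a block these shares were 0.292%, 3.92% and 0.418%, and again 0 members passed. At an unadjusted p under 0.05 they were 6.53%, 14.6% and 8.94%, with 0 of the 4 members in each comparison. With so few calls among all genes, the absence of a call for a member says little about its size of change, which the intervals above give. For groups that do not overlap, 1 of these 4 tested members (Ptgis) was higher in PM- than A-LMSCs against 19.6% of tested genes higher and 19.7% lower. In M- against A-LMSCs 2 of the 4 (Ptgs1 and Ptges) were lower against 24.4% of genes lower and 27.1% higher, and in M- against PM-LMSCs 1 of the 4 (Ptgs1) was lower against 16.7% lower and 17.8% higher.

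**Figure D3:**
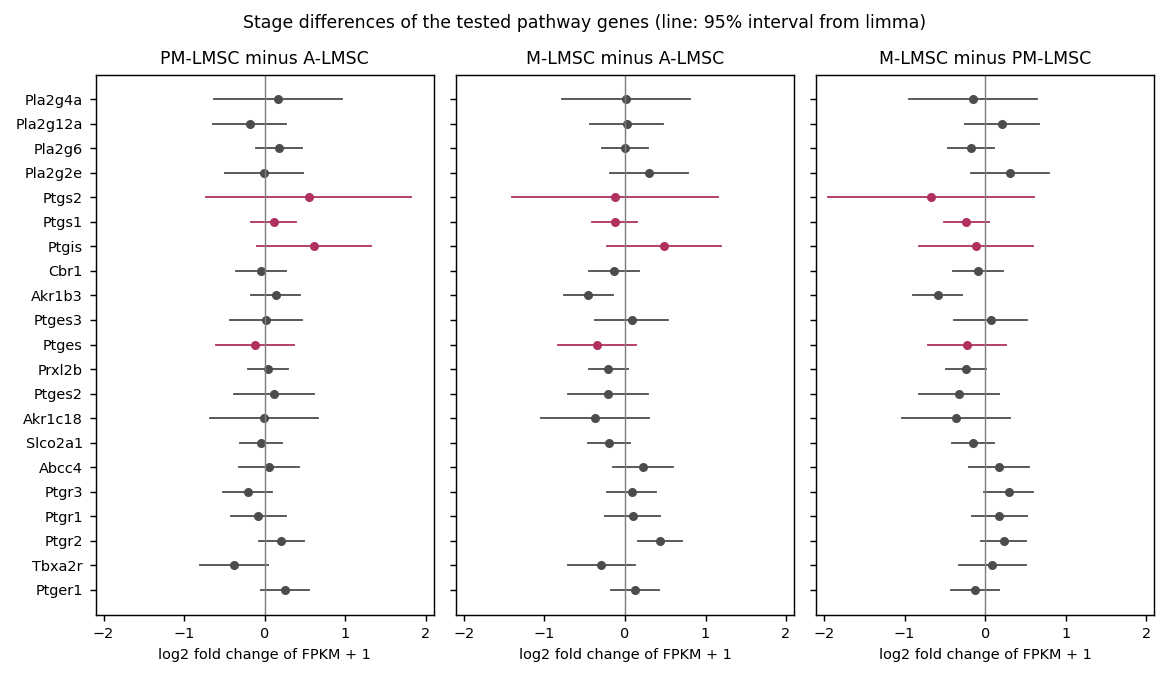
Differences between stages on the log2(FPKM + 1) scale for the 21 tested pathway genes, 1 panel per comparison, as points with 95% intervals from limma (the 4 tested members in red, the others in grey). The intervals of the 4 members span 0 in each comparison, and Akr1b3 lies below 0 in both comparisons with the M-LMSCs.

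Along the pathway, 40 genes were listed by role, 21 of which had a mean of at least 1 FPKM, 18 were under 1 FPKM in all 6 libraries and 4 of these were at 0 throughout. No listed gene passed at an adjusted p under 0.05 in any comparison, with or without the replicate block. Medians of the 21 log2 differences were 0.04, -0.00 and -0.13 for PM-LMSC minus A-LMSC, M-LMSC minus A-LMSC and M-LMSC minus PM-LMSC, beside 0.01, 0.03 and -0.00 over all tested genes. The last pathway median was -0.06 without replicate 1 of the M-LMSCs, -0.02 without replicate 2 of the M-LMSCs and 0.01 without the filter on low levels. Of the 21, groups did not overlap for 5 higher and 2 lower genes in PM- against A-LMSCs (19.6% and 19.7% of all tested genes), 2 higher and 8 lower in M- against A-LMSCs (27.1% and 24.4% of all), and 2 higher and 6 lower in M- against PM-LMSCs (17.8% and 16.7% of all).

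Upstream of the cyclooxygenases, Pla2g4a, the cytosolic phospholipase A2 that releases arachidonic acid, was the most abundant of the 12 listed phospholipases A2. It had 13.1 and 11.1 FPKM in the A-LMSCs, 17.2 and 10.7 FPKM in the PM-LMSCs, and 17.2 and 8.51 FPKM in the M-LMSCs, with overlapping stages. The others above 1 FPKM were Pla2g6 (3.83 to 5.02 FPKM), Pla2g12a (3.86 to 6.13 FPKM) and the secreted Pla2g2e (1.83 to 3.64 FPKM).

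Of the 11 terminal synthases and reductases, 8 were tested. Besides Ptgis and Ptges these included the constitutive prostaglandin E2 synthases Ptges2 (3.91 to 7.32 FPKM) and Ptges3 (13.9 to 19.9 FPKM, which shares 480 bases with a processed copy), Prxl2b (listed as Fam213b, 10.6 to 13.0 FPKM) and Cbr1 (25.7 to 31.9 FPKM), which reduces prostaglandin E2 to F2α. Akr1b3, an aldo-keto reductase with prostaglandin F synthase activity, had 23.7 and 24.4 FPKM in the A-LMSCs, 24.6 and 28.7 FPKM in the PM-LMSCs, and 16.1 and 18.6 FPKM in the M-LMSCs. Both M-LMSC libraries lay below the other 4. Its differences were -0.45 for M-LMSC minus A-LMSC (adjusted p = 0.196, 0.0602 with the replicate block) and -0.59 for M-LMSC minus PM-LMSC (adjusted p = 0.266, 0.0704 with the block), and 4 near-identical copies of it in the genome make its counting uncertain. The synthases of thromboxane (Tbxas1, 0.123 to 0.485 FPKM) and haematopoietic prostaglandin D2 (Hpgds, 0.0148 to 0.0705 FPKM) were close to 0.

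For transport and breakdown, the prostaglandin uptake carrier Slco2a1 stood at 17.1 to 21.1 FPKM and the exporter Abcc4 at 2.46 to 3.70 FPKM. While Hpgd was scarce, the reductases that act after it were not, with Ptgr1 at 16.3 to 22.0 FPKM and Ptgr3 (listed as Zadh2) at 16.3 to 23.0 FPKM. Ptgr2, another 15-keto reductase, had 1.86 and 2.07 FPKM in the A-LMSCs, 2.56 and 2.29 FPKM in the PM-LMSCs, and 3.10 and 2.92 FPKM in the M-LMSCs. Its stages did not overlap and its level was highest in the M-LMSCs, but the M-LMSC minus A-LMSC difference of 0.44 had an adjusted p of 0.183, or 0.0794 with the replicate block. The gene Gm47484 on the other strand shares 1896 of its 5929 exon bases.

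Of the 9 prostanoid receptors 2 had means above 1 FPKM, among them Tbxa2r, the thromboxane receptor. Tbxa2r had 14.7 and 12.3 FPKM in the A-LMSCs, 8.67 and 11.7 FPKM in the PM-LMSCs, and 9.94 and 11.7 FPKM in the M-LMSCs, both later stages lying below the first. Of all tested genes, 19.7% and 24.4% were lower without overlap in the PM- and M-LMSCs. In limma's test Tbxa2r did not reach an unadjusted p under 0.05 in any comparison. The prostacyclin receptor Ptgir, at 0.198 to 0.580 FPKM, was far below the prostacyclin synthase, and Ptger3 (0.0374 to 0.376 FPKM) and Ptgfr (0.114 to 0.246 FPKM) were low too.

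Within this pathway the balance of Ptgs2 and Ptgis differed between libraries that bear different replicate numbers. Ptgs2 was higher in replicate 1 by 1.24-fold in the A-LMSCs, 1.90-fold in the PM-LMSCs and 3.18-fold in the M-LMSCs, while for Ptgis the replicate 1 to replicate 2 ratio was 0.840, 0.778 and 0.528. The ratio of Ptgis to Ptgs2 was therefore 1.07 and 1.58 in the A-LMSCs, 0.867 and 2.12 in the PM-LMSCs, and 0.817 and 4.91 in the M-LMSCs. It was higher in replicate 2 at each stage. Ptgs2 over Ptgs1 was 1.54 and 1.22, 2.76 and 1.25, and 2.53 and 0.738 in the same order, falling below 1 in a single M-LMSC library. Among all tested genes 26.0% were higher in replicate 1 at all 3 stages and 21.2% in replicate 2, so the direction alone is common. Pla2g4a (1.18-, 1.61- and 2.02-fold) and Ptger4 (1.19-, 1.74- and 2.01-fold) were higher in replicate 1 at each stage, and Hpgd was higher in replicate 2 (ratios 0.630, 0.661 and 0.201). The Hpgd ratios rest on an estimated 2.94 to 14.7 fragments per library and say little. Compared within a replicate number, Ptgs2 was higher in PM- than A-LMSCs by 0.85 and 0.24 on the log2 scale, and in M- against A-LMSCs it differed by 0.54 in replicate 1 and -0.79 in replicate 2. Ptgis was higher than in A-LMSCs within both numbers, by 0.55 and 0.66 in the PM-LMSCs and by 0.16 and 0.82 in the M-LMSCs. No label links same-numbered libraries of different stages, so these differences have meaning only if the numbers mark pairs. Without pairing, Ptgs2 overlapped in every comparison of stages, and Ptgis in every one except PM- against A-LMSCs.

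Genes beside Ptgs2 on chromosome 1 were examined after its values were seen. All 5 tested genes within 1 Mb, Ptgs2 itself included, were higher in replicate 1 at every stage, as were 26.0% of all tested genes. Ptgs2 prompted the search, so its own direction adds nothing to this count. The others were Pla2g4a (138741 bases away), the long noncoding RNA gene Ptgs2os2 (50816 bases away), BC003331 and Tpr, a nuclear pore protein. Whether the region as a whole differs between libraries was not tested. Ptgs2os2 had 1.46 and 0.819 FPKM in the A-LMSCs, 2.40 and 1.08 FPKM in the PM-LMSCs, and 2.98 and 0.622 FPKM in the M-LMSCs, lowest in the same M-LMSC library as Ptgs2. Over all tested genes the 3 profiles nearest to that of Ptgs2 over the 6 libraries, by root mean square difference of centred log2(FPKM + 1), were Ereg (0.146), Tmem59l (0.186) and Smim15 (0.203). Ereg, which encodes the growth factor epiregulin, had 18.8 and 17.6 FPKM in the A-LMSCs, 32.1 and 21.1 FPKM in the PM-LMSCs, and 30.8 and 10.6 FPKM in the M-LMSCs. For Ptgis the nearest were Myrf (0.0524), Mst1r (0.0839) and Sh3tc2 (0.0888), and Myrf, a transcription factor gene, had 6.18 and 7.19, 10.3 and 12.4, and 6.98 and 14.7 FPKM in the A-, PM- and M-LMSCs. With 6 libraries such likeness is a description.

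**Figure D4:**
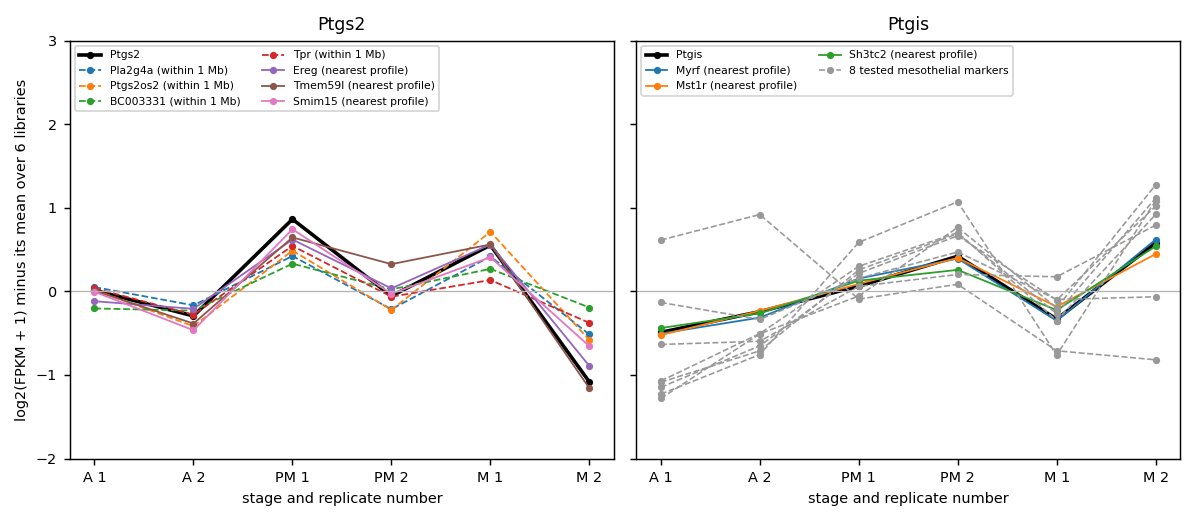
Log2(FPKM + 1) minus its mean over the 6 libraries, by stage and replicate number, for Ptgs2 with the tested genes within 1 Mb (dashed) and its 3 nearest profiles (left), and for Ptgis with its 3 nearest profiles and the 8 tested mesothelial markers (dashed grey, right). The Ptgs2 genes are lower in replicate 2 than in replicate 1 at each stage. Most mesothelial markers are lowest in the A-LMSCs and high in replicate 2 of the M-LMSCs, as Ptgis is. Krt19, the line that starts highest, falls instead, and Nkain4 is highest in the PM-LMSCs.

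Markers of other cell types also differed between the libraries. Summed over the 9 listed mesothelial markers (cells of the lung's outer lining), levels were 133 and 189 FPKM in the A-LMSCs, 311 and 432 FPKM in the PM-LMSCs, and 210 and 508 FPKM in the M-LMSCs. Both later stages lay above the A-LMSCs, and replicate 2 lay above replicate 1 at each stage, as for Ptgis. Of the 8 tested mesothelial markers, 7 were higher in both PM-LMSC libraries than in both A-LMSC libraries, as were 19.6% of all tested genes. The median difference was 1.27, and 6 were higher in replicate 2 at all 3 stages, as were 21.2% of all tested genes. The eighth, the keratin gene Krt19, went the other way, with 13.8 and 17.3 FPKM in the A-LMSCs, 8.09 and 9.28 FPKM in the PM-LMSCs, and 4.92 and 4.49 FPKM in the M-LMSCs. At an adjusted p under 0.05, 0, 1 and 0 of the 8 passed in PM-LMSC minus A-LMSC, M-LMSC minus A-LMSC and M-LMSC minus PM-LMSC (1, 6 and 0 with the replicate block). Shares over all tested genes were 0.0389%, 0.0681% and 0.0292%, and 0.292%, 3.92% and 0.418% with the block. Block results hold only if the replicate numbers mark pairs. The 1 that passed without the block was Krt19, lower in M- than A-LMSCs by a difference of -1.53 (adjusted p = 0.0395). Their part in the Ptgis values was not tested, and in bulk RNA a change in the share of such cells and a change in RNA per cell cannot be told apart.

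Summed haematopoietic markers (14 listed) were 140.8 and 130.9 FPKM in the A-LMSCs, 181 and 81.8 FPKM in the PM-LMSCs, and 429 and 306 FPKM in the M-LMSCs. They were highest in the M-LMSCs, where all 8 tested markers lay above both other stages. Over all tested genes, 27.1% lay above the A-LMSCs and 17.8% above the PM-LMSCs in this way. At each stage 6 of the 8 were higher in replicate 1, as Ptgs2, Ptger4 and 26.0% of all tested genes were. In the M-LMSCs Ptgs2 had 103 and 32.4 FPKM, the latter its lowest level, and Ptger4 had 1.69 and 0.842 FPKM, the former its highest. No haematopoietic marker passed without the block. With it, 6 of 8 passed in M-LMSC minus A-LMSC (3.92% of all tested genes) and 3 of 8 in M-LMSC minus PM-LMSC (0.418% of all). These block results too hold only if the replicate numbers mark pairs. Ptprc, which encodes the CD45 used for depletion, stayed under 0.1 FPKM, and the part of these cells in the Ptgs2 and Ptger4 values was not tested. Summed epithelial markers (10 listed, 1 tested) were 2.69 and 4.27 FPKM in the A-LMSCs, 6.51 and 9.72 FPKM in the PM-LMSCs, and 8.00 and 13.3 FPKM in the M-LMSCs, higher in replicate 2 at each stage. The 1 tested was the keratin gene Krt18, and 7 of the 10 stayed under 1 FPKM in all 6 libraries. The sum therefore does not describe the list as a whole. Endothelial markers (7 listed) summed to at most 2.97 FPKM, and smooth muscle and pericyte markers (6 listed) to 8569 to 10033 FPKM.

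Genes that act around the pathway were read from 3 further lists. Of 10 interleukin-1 and TNF axis genes, which include known inducers of COX-2 and their receptors, 6 were tested and 0 passed in any comparison, with or without the block. The cytokines Il1b and Tnf were at most 0.0288 and 0.0595 FPKM. A further cytokine, Il1a, averaged under 1 FPKM, was not among the tested genes and was higher in replicate 1 at each stage (3.36-, 3.76- and 2.26-fold). From the 6 tested genes of this list, 1 was higher in replicate 1 and 1 in replicate 2 at all 3 stages. Over all tested genes the shares were 26.0% and 21.2%. Tnfrsf1a, the main TNF receptor, stood at 52.0 to 58.4 FPKM and the NF-kappaB subunit Rela at 36.2 to 44.2 FPKM. Of 11 cyclic AMP-responsive genes, 6 were tested and 0 passed. Of 10 genes of the other arachidonic acid routes (lipoxygenases, leukotriene enzymes and epoxide handling), 5 were tested and 0 passed without the block. Lta4h, the leukotriene A4 hydrolase, stood at 41.0 to 53.0 FPKM. Alox5ap, the partner of 5-lipoxygenase and mostly known from myeloid cells, had 1.10 and 0.949 FPKM in the A-LMSCs, 1.03 and 0.367 FPKM in the PM-LMSCs, and 2.63 and 1.97 FPKM in the M-LMSCs. Both M-LMSC libraries lay above the other 4, with differences of 0.70 from the A-LMSCs (adjusted p = 0.217, 0.0424 with the replicate block) and 0.98 from the PM-LMSCs (adjusted p = 0.266, 0.0473 with the block), alongside the haematopoietic markers given above.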

How the data were processed

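Total RNA of lung stromal cells (6 libraries) was sequenced on an Illumina platform by the authors. The deposited table held FPKM values per gene and library, and the submitters' processing notes name TopHat2 2.0.9 and mm10; the counting tool, annotation and strand setting are not given in the sources used here. Whole fragments could not be recovered (54.4% to 55.9% of low values lay within 0.1 of a whole number), so no count test was run. FPKM were taken to log2(FPKM + 1) and fitted with limma 3.58.1 (R 4.3.3; 1 mean per stage, all 6 libraries, trended empirical Bayes). The 10279 genes that averaged 1 FPKM or more were tested, with Benjamini-Hochberg adjustment over all of them at 0.05. Members below that minimum take their values from the fit without the filter, and most of their log2 differences are made smaller by the pseudocount of 1. Replicate numbers come from the sample titles. Deviations of same-numbered libraries from their stage means correlated with r = 0.238, 0.307 and 0.491, and a fit with the number as a block was run as an alternative. No label links same-numbered libraries of different stages. With 2 libraries per stage, swapping the numbers within 1 stage only turns the sign of r, so these values cannot show pairing. Results of the block fit hold only if the numbers do mark pairs. Alternatives were a pseudocount of 0.1, no filter, quantile normalization, median centring, only the stages compared, the replicate block, and leaving out each library. Near copies were sought with blastn 2.17.0 against GENCODE M21. All members were named, pathway genes averaging 1 FPKM or more could be, and from the 3 surrounding lists at most 4 each by mean level. Alox5ap falls outside that rule and was named after its values were seen. Il1a, Il1b and Tnf fall outside it too, as do the pathway genes named at lower means. The members and lists were chosen with earlier results of these data known. The level of 1 tested receptor gene is not reported here.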

Additional observations from a re-analysis of the deposited data

Results flagged for a closer look

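Akr1b3, an aldo-keto reductase with prostaglandin F synthase activity, was marked because, against the adenoma stage, its level was above in each PM-LMSC library and below in each M-LMSC library. Its M-LMSC minus PM-LMSC difference was -0.59 on the log2(FPKM + 1) scale (limma, adjusted p = 0.266, 0.0704 with the replicate block), so the contrast did not pass the test. It has 4 near-identical copies in the genome. With 2 libraries per stage, single libraries could not be tested for standing apart.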

How the results depend on the processing

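Depth was estimated from FPKM steps and not counted, and 2 libraries per stage limit every comparison. Genes called in PM-LMSC minus A-LMSC numbered 4, against 1 without the filter, 21 with only the compared stages and 1 to 28 with a library left out. For M-LMSC minus A-LMSC they numbered 7, against 3 without the filter, 1 with only the compared stages and 1 to 90 with a library left out, and for M-LMSC minus PM-LMSC 3, against 2 to 25. With the replicate block the counts were 30, 403 and 43. Pathway genes called stayed at 0 under every alternative. Of 276 alternative values of the 24 member differences, 261 kept their direction, 1 was 0, 0 passed the threshold and 14, all with a library left out, changed direction. Over the left-out libraries the ranges of the results that changed direction were -0.94 to 0.69 (Ptgs2, M-LMSC minus A-LMSC), -1.49 to 0.15 (Ptgs2, M-LMSC minus PM-LMSC), -0.29 to 0.041 and -0.49 to 0.047 (Ptges, PM-LMSC minus A-LMSC and M-LMSC minus PM-LMSC), -0.57 to 0.34 (Ptgis, M-LMSC minus PM-LMSC), -0.10 to 0.30 (Ptgds, M-LMSC minus PM-LMSC), -0.0034 to 0.46 and -0.33 to 0.13 (Hpgd, M-LMSC minus A-LMSC and M-LMSC minus PM-LMSC), -0.19 to 0.15 (Ptger2, PM-LMSC minus A-LMSC), and -0.11 to 0.25 and -0.022 to 0.52 (Ptger4, PM-LMSC minus A-LMSC and M-LMSC minus PM-LMSC). Without changing direction, Ptgs2 in PM-LMSC minus A-LMSC ranged from 0.085 to 1.00, Ptgis in M-LMSC minus A-LMSC from 0.034 to 0.95 and Ptges in M-LMSC minus A-LMSC from -0.62 to -0.076, each widest with 1 or the other library of the later stage left out. The cause was not tested. The replicate block changed no call of a member or pathway gene.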
